A study of Mus musculus with 12 samples.

Results

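The genes described here encode the extracellular matrix of the liver and the proteins that mark its stellate cells. They were 40 genes named by symbol, all of which were found among the 56107 genes of the table. By role they comprised 5 genes of quiescent stellate cells, 11 of activated stellate cells, 5 of the basement membrane, 9 other matrix genes, 4 genes of matrix turnover and 6 ligands and receptors. Livers of 12 mice were measured, 1 library of polyadenylated RNA each, in 4 groups of 3 animals. The WT animals were littermate controls, and the knockout (KO) animals carry a global deletion of Lix1l per the labels. Mice of both genotypes received LFD, a diet low in fat, or HFD, a diet high in fat, over 12 weeks, starting when 6 weeks old. The study asked how LIX1L affects non-alcoholic steatohepatitis, the inflamed form of fatty liver disease.

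Hepatic stellate cells lie between the sinusoidal endothelium and the hepatocytes, where in the healthy liver they store vitamin A as retinyl esters. After injury, transforming growth factor beta and platelet-derived growth factor turn them into contractile cells that lay down fibrillar collagen, the scar of liver fibrosis. The sinusoidal wall itself holds little organised basement membrane, and collagen IV and laminin around it increase in fibrosis.

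Levels were given in TPM (a share of the library's transcripts, scaled to transcript length), which keeps no read depth. Genes that reached 1 TPM in at least 3 libraries were tested with limma on log2(TPM + 1), 11980 in all, and a gene was called higher or lower at an adjusted p below 0.05. Log2 changes are on that scale with their SE, which understates the change of low genes, and levels are mean ± SD in TPM with n = 3 livers. Of the 40 genes, 29 passed this filter. The other 11 were Hgf, Col1a1, Col5a2, Lox, Loxl2, Timp1, Lamb1, Nid1, Col6a2, Pdgfra and Thbs1, which have levels and no test. Of the 29, 7 (Lrat, Des, Acta2, Col5a1, Col6a1, Col6a3 and Pdgfrb) reached 1 TPM in no WT library and so entered through the KO libraries alone. Col1a2, Timp3 and Mmp2 reached 1 TPM in 1 WT library and Col4a2 in 2, so these too passed the filter only with KO libraries. Both sets lean any count over the 29 toward higher levels in KO. The matrix genes were low in these livers: 17 of the 40 had a mean below 1 TPM over the 12 libraries and 6 had a mean of at least 10 TPM.

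Lix1l did not separate the genotypes. On HFD it was at 1.15 ± 0.907 TPM in livers labelled KO and 1.27 ± 0.422 TPM in WT livers, with an exact 2-sided permutation p of 0.9. On LFD it was at 0.420 ± 0.313 against 0.793 ± 0.258 TPM, with an exact permutation p of 0.3, where 3 against 3 cannot go below 0.1. Without KO HFD library 5 (0.150 TPM) the log2 change on HFD turned from -0.17 to 0.23. "KO" below therefore means no more than the label of a liver, on which all directions between genotypes depend. The KO HFD livers also stood apart in library-wide measures, to unequal degrees. The nuclear RNA Malat1 was at 79.0 ± 43.6 against 6.79 ± 2.31 TPM in WT HFD, and each KO HFD value lay above every other library. The mitochondrially encoded share was 15.3% ± 6.29 of TPM against 9.43% ± 1.44 in WT HFD and 10.8% ± 1.28 in WT LFD. That mean was raised mainly by KO HFD library 1 (22.6%). Library 5 was at 12.6%, and library 6 (10.9%) lay within the range of the WT libraries. The part of these in the results below was not tested. In bulk liver, fewer cells of a type and less RNA per cell cannot be told apart.

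Matrix and stellate cell genes were as a rule at higher levels in KO than in WT livers, on both diets. Over all 40 genes, with no filter, the KO mean was above the WT mean for 33 genes (82.5%) on HFD and for 39 (97.5%) on LFD. Over all genes above 0 TPM in any library these shares were 45.4% and 53.9%. The KO LFD group had the highest mean of the 4 groups for 33 of the 40 genes, and WT HFD the lowest for 23. A single library, KO LFD 2, was the highest of all 12 for 23 of the 40, and KO LFD 4 and 5 for 5 genes each. The summed level of the 40 genes was 354.8 to 364.1 TPM in WT LFD, 519.5 to 606.3 in KO LFD, 323.4 to 400.6 in WT HFD and 346.5 to 497.7 in KO HFD. Fn1 and Ecm1 gave most of this sum. The mean of Fn1 was 188 TPM in WT LFD, 267 in KO LFD, 247 in WT HFD and 142 in KO HFD. That of Ecm1 was 55.3, 86.7, 39.2 and 158 TPM in the same order.

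**Figure D1:**
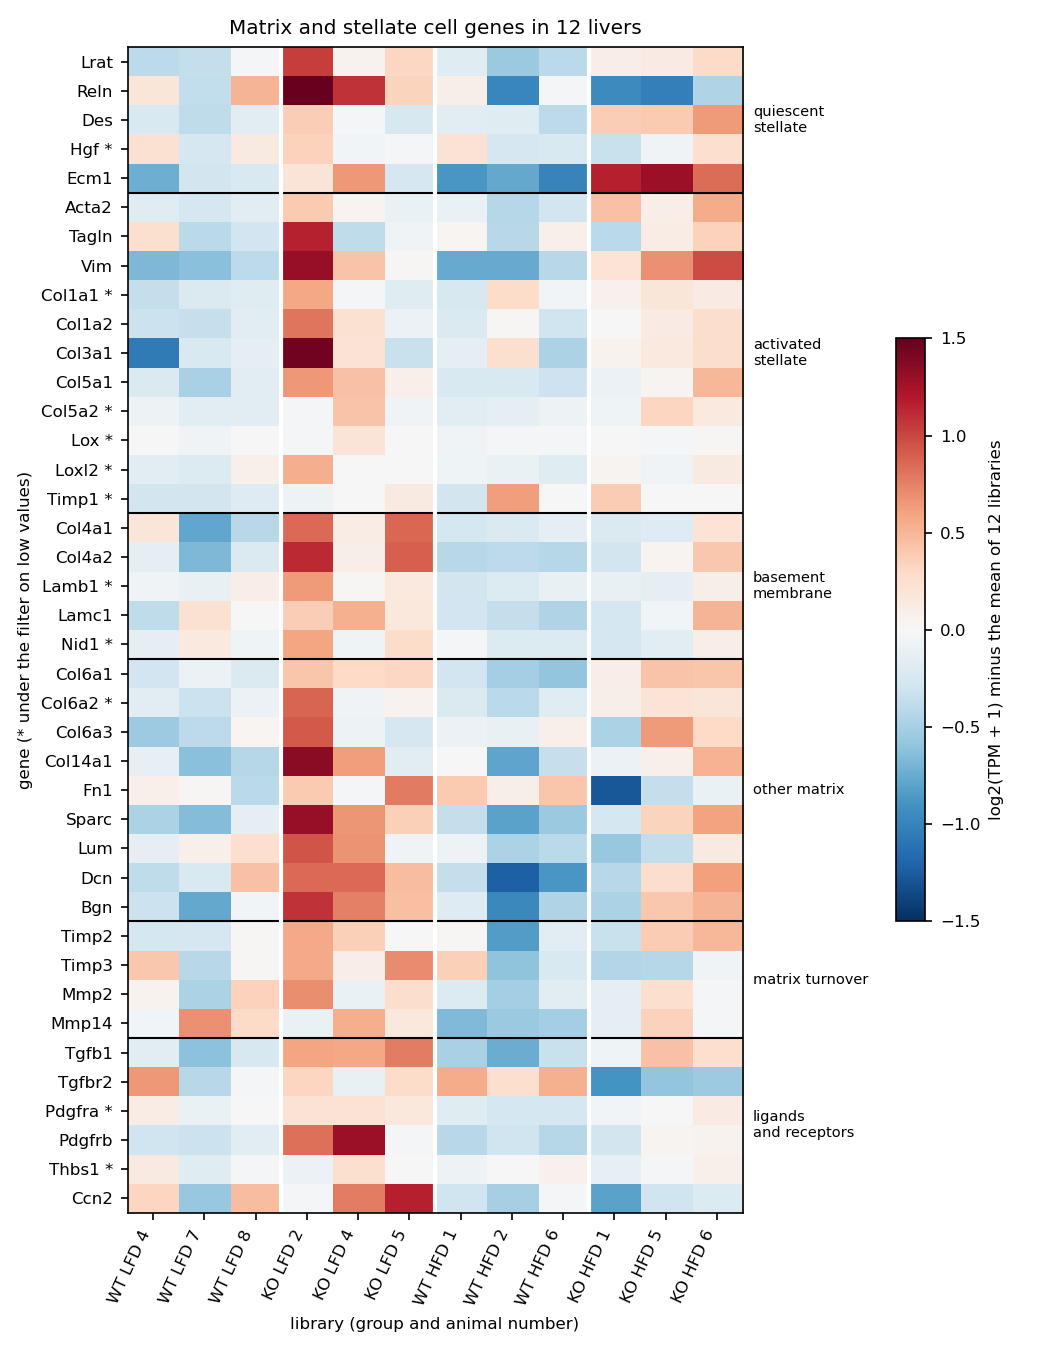
Level of each of the 40 genes (rows, grouped by role) in each of the 12 libraries (columns), as log2(TPM + 1) minus the mean of the gene over all libraries, so that red is above and blue below the gene's own mean and the darkest shades include values beyond the scale. Genes marked with an asterisk did not pass the filter on low values. The KO LFD columns, led by library 2, are the reddest, and Ecm1, Des and Acta2 are reddest in KO HFD.

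On HFD, 9 of the 29 tested genes were higher in KO than in WT livers and 2 were lower, where 11.2% of all tested genes were higher and 25.8% lower (1347 and 3088 genes, or 2143 and 2632 with median-ratio scaling). Of the 9, 6 were among the 22 genes that reached 1 TPM in a WT library and 3 among the 7 that did not. The 9 were Ecm1, Vim, Dcn, Sparc, Col6a1, Tgfb1, Des, Mmp14 and Acta2, and the 2 were Tgfbr2 and Fn1. The median log2 change was 0.43 over the 29 genes and -0.25 over all tested genes. Of the 29, 14 had all 3 KO values above all 3 WT values, against 16.1% of all tested genes, and 2 had them all below, against 37.3%. Among the 14 were Lrat, Des, Acta2, Col5a1, Col6a1, Pdgfrb, Mmp2 and Col4a2. These passed the filter only with KO libraries, so the share of all genes is no measure for them. On LFD none of the 29 was called, and 0.0918% of all tested genes were higher and 0.0668% lower. At an unadjusted p below 0.05, 16 of the 29 were higher on LFD and 0 lower by limma, where 8.38% of all tested genes were higher and 4.34% lower at that threshold. In the same comparison 12 genes had no overlap between the groups, all higher in KO (11.2% of all tested genes were higher in that way), and the median log2 change was 0.59 against 0.07 over all tested genes. Both log2 changes were positive for 23 of the 29 genes (79.3%), as they were for 23.9% of all tested genes. All these counts over the 29 keep the lean toward KO that the filter gives, so the shares of all tested genes are no like measure. Among the 22 genes that reached 1 TPM in a WT library the median log2 change was 0.37 on HFD and 0.60 on LFD.

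**Figure D2:**
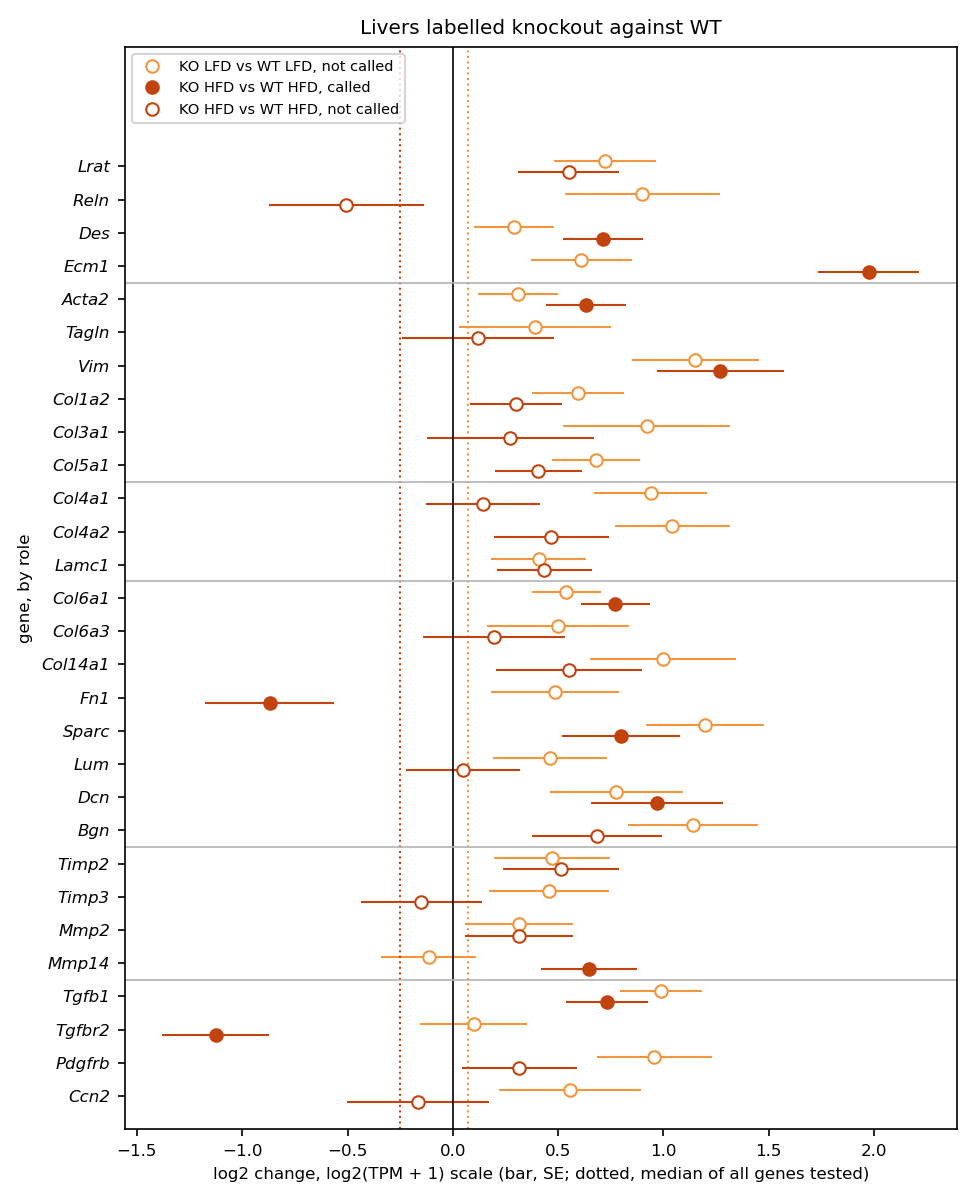
Log2 change between KO and WT livers on each diet for the 29 tested genes, in order of role, with bars for the SE. Filled points passed the adjusted test (9 higher and 2 lower on HFD, 0 on LFD), and dotted lines give the median of all tested genes (-0.25 on HFD and 0.07 on LFD).

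Among the quiescent stellate cell genes, Ecm1 and Des were higher in KO livers on HFD, and Reln went with diet in KO livers. Ecm1 encodes a secreted glycoprotein that in mouse liver holds latent transforming growth factor beta inactive, and hepatocytes make it as well as stellate cells. Its level was far above the rest of this group, at 35.9 TPM in its lowest library, where Lrat reached at most 3.08 TPM. The KO HFD libraries 1, 5 and 6 held 164.4, 178.8 and 131.1 TPM of Ecm1, and the WT HFD libraries 1, 2 and 6 held 39.4, 42.5 and 35.9 TPM. All 3 KO HFD values lay above the 9 others, the nearest of which was 115 TPM in KO LFD library 4. The ratio of means was 4.03 on HFD (158 ± 24.5 against 39.2 ± 3.30 TPM, log2 change 1.97 ± 0.24, adjusted p = 6.83e-04). On LFD the KO libraries 2, 4 and 5 held 83.3, 115 and 61.2 TPM and the WT libraries 4, 7 and 8 held 43.6, 60.0 and 62.2 TPM. These overlapped, and the LFD difference did not pass (log2 change 0.61 ± 0.24, adjusted p = 0.318).

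Ecm1 lies on chromosome 3 (95734147 to 95739569, - strand, GRCm38, protein-coding), 0.862 Mb from the start of Lix1l (96601149 to 96626171, + strand). The promoter of Ecm1 is shown because Ecm1 had the largest called difference of the 40 genes, and the capitals mark the letters TGAGTCA (the AP-1 site) and TATAAA (the TATA box). The window (RefSeq, GRCm38.p6, chr3:95739520-95739819, - strand) runs from 250 bases before to 50 bases after the transcript start:
Ecm1: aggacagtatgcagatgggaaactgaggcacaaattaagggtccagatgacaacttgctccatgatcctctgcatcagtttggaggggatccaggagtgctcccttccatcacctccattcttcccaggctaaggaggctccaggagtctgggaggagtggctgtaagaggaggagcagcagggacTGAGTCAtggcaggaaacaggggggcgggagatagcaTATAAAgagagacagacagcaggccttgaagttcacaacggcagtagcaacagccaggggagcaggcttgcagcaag

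Promoter windows were found for 26 of the 40 genes, 28 windows in all, and motifs were searched on both strands. TGAGTCA stood in 2 of the 28 (7.14%), those of Ecm1 and Col6a1, against 5.2% of all 32851 windows. TATAAA stood in 3 (10.7%), those of Ecm1, Col3a1 and Vim, against 13.6%. The GC box GGGCGG stood in 18 (64.3%) against 35.7%, and CAGAC, the core of the SMAD element, in 15 (53.6%) against 49.6%. The CArG box, the letters bound by serum response factor, stood in 0 of the 28 and in 1.63% of all windows. A match describes the letters of the window only.

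Des encodes desmin, the intermediate filament of rodent stellate and muscle cells. Its KO HFD values were 1.27, 1.32 and 1.75 TPM and its WT HFD values 0.570, 0.560 and 0.340 TPM. These groups did not overlap (log2 change 0.71 ± 0.19, adjusted p = 0.0144). Lrat, which encodes the enzyme that esterifies retinol for storage, was at 1.13, 1.16 and 1.43 TPM in KO HFD and 0.760, 0.350 and 0.50 TPM in WT HFD, and did not pass (log2 change 0.55 ± 0.24, adjusted p = 0.0916). Its KO LFD values were 3.08, 1.07 and 1.46 TPM and its WT LFD values 0.520, 0.550 and 0.960 TPM (log2 change 0.72 ± 0.24, adjusted p = 0.238). For Lrat all 6 KO libraries lay above all 6 WT libraries. Reln encodes reelin, a secreted glycoprotein made in adult liver by stellate cells and by lymphatic endothelium. It was at 17.3, 11.7 and 6.55 TPM in KO LFD, 5.83, 3.66 and 7.52 in WT LFD, 2.10, 1.95 and 3.39 in KO HFD and 5.37, 2.05 and 4.91 in WT HFD. Hgf, the hepatocyte growth factor gene, ran from 0.150 to 0.840 TPM over the 12 libraries, with all groups overlapping.

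Among the genes of activated stellate cells, the cytoskeletal genes Vim and Acta2 were higher in KO livers on HFD and the fibrillar collagens did not pass. Vim encodes the intermediate filament vimentin of mesenchymal, endothelial and immune cells. It was at 7.86, 11.4 and 14.2 TPM in KO HFD and 3.54, 3.56 and 4.75 TPM in WT HFD. The ratio of means was 2.82 (log2 change 1.27 ± 0.30, adjusted p = 0.00878). On LFD the KO values of 18.0, 9.33 and 6.80 TPM all lay above the WT values of 3.82, 3.96 and 4.86 TPM, with a change of like size that did not pass (log2 change 1.15 ± 0.30, adjusted p = 0.153). Acta2 encodes smooth muscle actin, the usual mark of activated stellate cells. It was at 1.18, 0.730 and 1.37 TPM in KO HFD and 0.50, 0.200 and 0.330 TPM in WT HFD (log2 change 0.63 ± 0.19, adjusted p = 0.0230). The WT LFD libraries held 0.420, 0.360 and 0.430 TPM and the KO LFD libraries 1.11, 0.660 and 0.50 TPM (log2 change 0.31 ± 0.19, adjusted p = 0.549). Acta2 was thus at 1.37 TPM or less in each liver.

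Collagen I and III are the main proteins of fibrotic scar. Col1a1 was at 0.540, 0.670 and 0.610 TPM in KO HFD, 0.250, 0.790 and 0.430 in WT HFD, 1.20, 0.460 and 0.300 in KO LFD and 0.150, 0.270 and 0.300 in WT LFD. These overlapped on both diets, and Col1a1 stayed below the filter. Col1a2, its partner chain, was higher than Col1a1 in each of the 12 libraries, by a ratio of 1.27 to 3.87. The change of Col1a2 on HFD was 0.30 ± 0.22 (adjusted p = 0.295), with values of 0.990, 1.15 and 1.37 TPM in KO and 0.700, 1.0 and 0.600 TPM in WT. On LFD, Col1a2 had KO values of 2.44, 1.31 and 0.860 TPM that all lay above the WT values of 0.580, 0.550 and 0.760 TPM (log2 change 0.59 ± 0.22, adjusted p = 0.286). Col3a1 was at 2.46, 2.69 and 3.01 TPM in KO HFD, 2.05, 2.95 and 1.41 in WT HFD, 8.13, 2.90 and 1.66 in KO LFD and 0.610, 1.85 and 2.05 in WT LFD. The genotypes overlapped on both diets (log2 change 0.27 ± 0.40 with adjusted p = 0.606 on HFD, and 0.92 ± 0.40 with adjusted p = 0.359 on LFD). The KO LFD mean of Col3a1 was raised by library 2.

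Of the other genes of this group, Timp1, the inhibitor of metalloproteinases that rises in fibrotic liver, was at most 0.870 TPM, in WT HFD library 2, and was listed at 0 in WT LFD libraries 4 and 7. The collagen crosslinking gene Lox did not exceed 0.180 TPM. Loxl2, a second crosslinking enzyme, ran from 0.0900 to 0.840 TPM and shares 46.2% of its 31-base words with another gene, so its reads are uncertain. Of the collagen V chains, Col5a1 was at 0.710 to 1.57 TPM in KO HFD and 0.470 to 0.560 TPM in WT HFD, which did not pass (adjusted p = 0.140, and 0.198 on LFD). Col5a2, not tested, was at 0.160 to 0.520 against 0.0900 to 0.150 TPM. Tagln, a smooth muscle actin-binding protein, ran from 1.5 to 6.38 TPM with overlapping groups, and 62.4% of its exon bases are shared with the antisense gene Gm48529, which unstranded counting cannot separate.

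**Figure D3:**
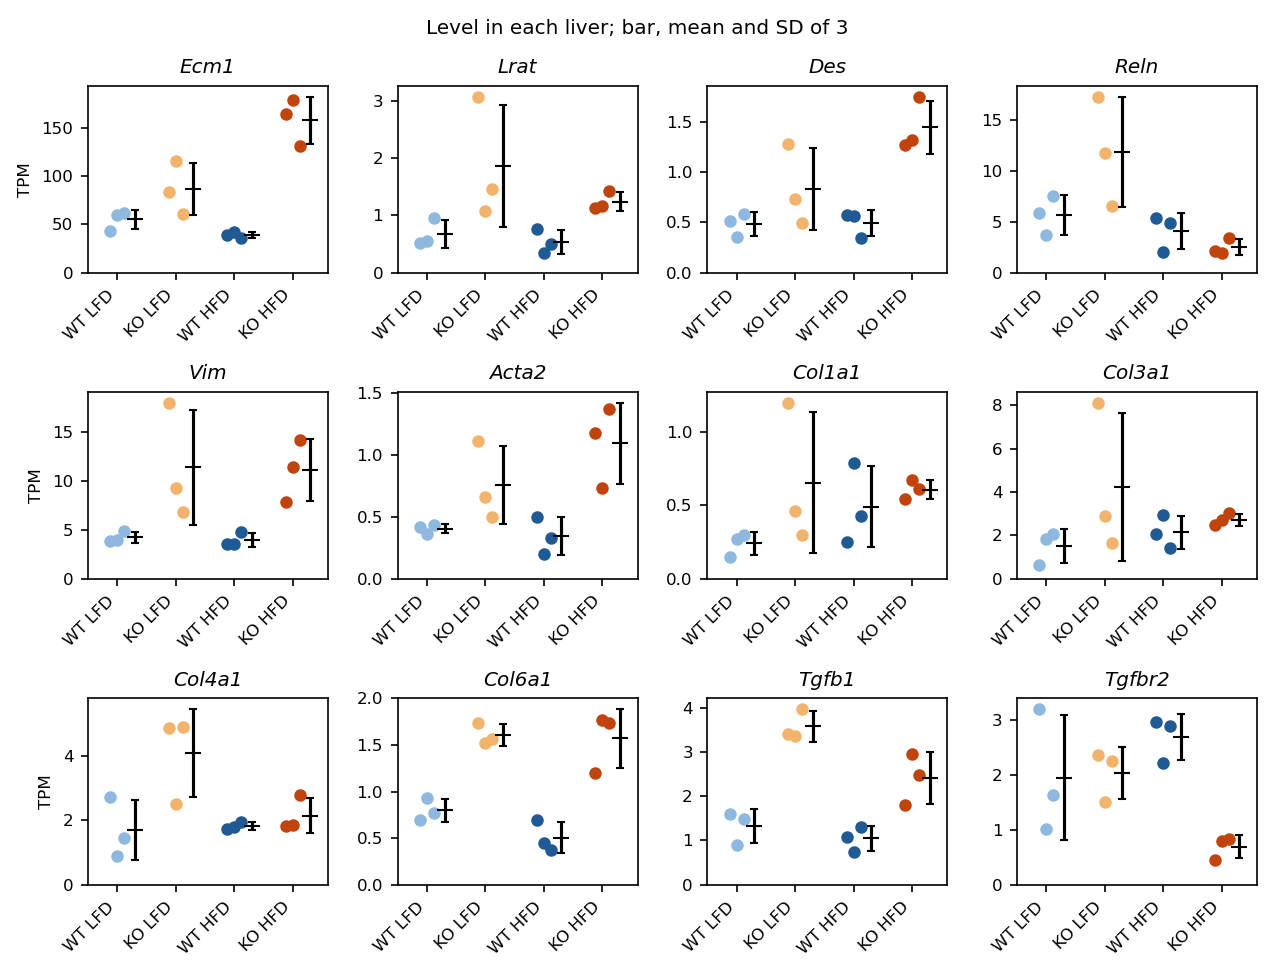
TPM of 12 of the genes in each library (points, in order of animal number) by group, with the group mean and SD (bars, n = 3), each panel on its own axis from 0. Ecm1 and Des are highest in KO HFD, Reln in KO LFD, Col1a1 and Col3a1 have 1 high KO LFD library, and Tgfbr2 is lowest in KO HFD.

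Of the basement membrane genes, none of the 3 tested passed between the genotypes on either diet, and the interaction passed for none of Col4a1 (adjusted p = 0.168), Col4a2 (0.318) and Lamc1 (0.966). Col4a1 and Col4a2 encode the chains of the main collagen IV molecule. Col4a1 was at 4.87, 2.51 and 4.91 TPM in KO LFD and 2.71, 0.900 and 1.45 TPM in WT LFD (log2 change 0.94 ± 0.27, adjusted p = 0.179). Col4a2 was at 4.18, 1.53 and 3.42 TPM in KO LFD and 1.17, 0.490 and 1.05 TPM in WT LFD. For Col4a2 the groups did not overlap (log2 change 1.04 ± 0.27, adjusted p = 0.153), and leaving out KO LFD library 4 made it pass (adjusted p = 0.0408). On HFD the KO values of Col4a1 were 1.81, 1.86 and 2.77 TPM against 1.72, 1.80 and 1.95 TPM in WT (log2 change 0.14 ± 0.27, adjusted p = 0.693). Those of Col4a2 were 0.970, 1.44 and 2.14 TPM against 0.780, 0.810 and 0.770 TPM (log2 change 0.47 ± 0.27, adjusted p = 0.191). The level of Col4a2 was below that of Col4a1 in each library, at a ratio of 0.395 to 0.858.

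Col4a1 (chromosome 8, 11198423 to 11312826, - strand) and Col4a2 (11312805 to 11449287, + strand) are head to head, and their transcripts overlap by 22 bases at the start. Their promoter windows are shown because these paired chains are read in opposite directions from a shared stretch, whose 78 bases (11312777 to 11312854, 73.1% GC) are in capitals in both (RefSeq, GRCm38.p6, chr8:11312777-11313076 on the - strand and chr8:11312555-11312854 on the + strand):
Col4a1: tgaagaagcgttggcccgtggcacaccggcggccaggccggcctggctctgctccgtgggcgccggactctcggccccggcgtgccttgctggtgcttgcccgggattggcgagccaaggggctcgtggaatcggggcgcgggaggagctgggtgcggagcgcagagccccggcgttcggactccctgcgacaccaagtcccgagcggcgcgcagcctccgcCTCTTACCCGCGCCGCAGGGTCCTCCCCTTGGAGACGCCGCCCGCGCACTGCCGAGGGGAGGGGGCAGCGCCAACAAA
Col4a2: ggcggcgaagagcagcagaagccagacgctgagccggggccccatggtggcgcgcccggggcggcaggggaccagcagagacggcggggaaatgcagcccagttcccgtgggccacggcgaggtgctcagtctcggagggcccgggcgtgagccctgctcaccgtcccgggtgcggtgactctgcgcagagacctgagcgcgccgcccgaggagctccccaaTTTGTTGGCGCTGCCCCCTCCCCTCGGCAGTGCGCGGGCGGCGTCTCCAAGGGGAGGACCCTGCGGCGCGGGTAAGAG

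The laminin chain gene Lamc1 was at 2.27 to 4.57 TPM in KO HFD and 1.87 to 2.21 TPM in WT HFD, with no overlap, and at 3.36 to 4.69 against 2.0 to 3.58 TPM on LFD, and passed on neither diet (log2 change 0.43 ± 0.22 on HFD and 0.41 ± 0.22 on LFD). Lamb1, its partner chain, ran from 0.320 to 1.5 TPM and Nid1, which links laminin to collagen IV, from 0.350 to 1.43 TPM, both highest in KO LFD library 2. In a wider list of basement membrane genes, 4 of 9 tested were higher and 1 lower in KO HFD than in WT HFD, against 11.2% and 25.8% of all tested genes. Lama5, a laminin alpha chain, was at 1.59 ± 0.330 against 0.400 ± 0.0854 TPM (log2 change 0.88 ± 0.22, adjusted p = 0.0111), and Hspg2, the perlecan gene, at 3.61 ± 1.04 against 1.74 ± 0.437 TPM (adjusted p = 0.0159). Col18a1, which encodes the endostatin precursor and is made in liver largely by hepatocytes, was lower at 62.1 ± 16.4 against 146 ± 23.6 TPM (log2 change -1.24 ± 0.28, adjusted p = 0.00664).

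Among the other matrix genes, Sparc, Dcn and Col6a1 were higher in KO livers on HFD and Fn1 was lower. Col6a1 encodes a chain of the beaded filament collagen VI. It was at 1.20, 1.77 and 1.74 TPM in KO HFD and 0.690, 0.450 and 0.370 TPM in WT HFD, 3.12 times as high in the mean (log2 change 0.77 ± 0.16, adjusted p = 0.00545). On LFD it was at 1.74, 1.52 and 1.56 TPM in KO and 0.690, 0.930 and 0.770 TPM in WT (log2 change 0.54 ± 0.16, adjusted p = 0.198). For Col6a1 the 6 KO values lay above the 6 WT values, and the same held for Col6a2, another chain (0.430 to 1.72 against 0.120 to 0.390 TPM), which was not tested. Col6a3 overlapped between genotypes on both diets (0.220 to 2.36 TPM over the 12).

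The small leucine-rich proteoglycan decorin, Dcn, was at 30.98, 50.4 and 64.4 TPM in KO HFD and 32.5, 17.4 and 22.3 TPM in WT HFD, where the lowest KO value lay within the WT range (log2 change 0.97 ± 0.31, adjusted p = 0.0313). On LFD the KO values of Dcn (76.1, 76.0 and 57.9 TPM) all lay above the WT values (31.8, 35.4 and 57.1 TPM), and the change did not pass (0.78 ± 0.31, adjusted p = 0.333). Sparc, a collagen-binding glycoprotein, was at 7.46, 11.9 and 14.5 TPM in KO HFD and 6.95, 4.83 and 5.92 TPM in WT HFD (log2 change 0.80 ± 0.28, adjusted p = 0.0435). On LFD, Sparc was at 24.2, 15.1 and 12.1 against 6.35, 5.50 and 8.17 TPM, with no overlap (log2 change 1.20 ± 0.28, adjusted p = 0.124). Biglycan, Bgn, had the same layout on LFD (21.2 to 33.6 against 8.54 to 14.8 TPM, adjusted p = 0.155) and overlapped on HFD (10.7 to 22.2 against 7.29 to 13.3 TPM, adjusted p = 0.0998). Col14a1, a fibril-associated collagen, was highest in KO LFD library 2 (8.77 TPM), and lumican, Lum, was at 0.50 to 3.26 TPM over the 12 libraries. Neither passed on either diet.

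Fibronectin, Fn1, had the highest mean level of the 40 genes over the 12 libraries, though Ecm1 was higher in the KO HFD mean, and with Tgfbr2 it was called lower in KO livers on HFD. Hepatocytes secrete it into plasma, and stellate and endothelial cells make its cellular forms. It was at 82.4, 156 and 187 TPM in KO HFD and 262, 213 and 267 TPM in WT HFD. The groups did not overlap (142 ± 53.8 against 247 ± 29.5 TPM, log2 change -0.87 ± 0.30, adjusted p = 0.0422), and KO HFD library 1 was the lowest of all 12. On LFD it was at 262, 196 and 344 TPM in KO and 211, 202 and 151 TPM in WT, which overlapped (log2 change 0.48 ± 0.30, adjusted p = 0.563).

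Among the genes of matrix turnover, Mmp14 was higher in KO livers on HFD. Mmp14 encodes a membrane-bound collagenase. It was at 12.5, 17.9 and 13.6 TPM in KO HFD and 8.33, 9.04 and 9.38 TPM in WT HFD (log2 change 0.65 ± 0.23, adjusted p = 0.0435). In WT LFD it was at 13.4, 22.9 and 17.1 TPM and in KO LFD at 12.8, 20.5 and 15.5 TPM, so that WT HFD was the group that stood below the other 3. The gelatinase gene Mmp2 (0.180 to 1.73 TPM over the 12), Timp2 (0.680 to 3.42 TPM) and Timp3 (0.0200 to 1.53 TPM) did not pass on either diet. In Timp3, 21.3% of the exon bases are shared with Syn3 on the other strand.

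Of the ligands and receptors, the ligand Tgfb1 was higher in KO HFD than in WT HFD livers and the receptor Tgfbr2 was lower. Tgfb1 encodes transforming growth factor beta 1, made in liver mostly by macrophages, endothelium and platelets. It was at 1.80, 2.97 and 2.49 TPM in KO HFD and 1.09, 0.750 and 1.31 TPM in WT HFD, 2.30 times as high in the mean (log2 change 0.73 ± 0.19, adjusted p = 0.0142). On LFD it was at 3.42, 3.36 and 3.99 TPM in KO and 1.61, 0.900 and 1.48 TPM in WT, the lowest adjusted p of the 29 genes in that comparison (log2 change 0.99 ± 0.19, adjusted p = 0.0940). All 6 KO values of Tgfb1 lay above all 6 WT values. Tgfbr2 encodes the receptor that binds this ligand. It was at 0.450, 0.790 and 0.840 TPM in KO HFD and 2.96, 2.21 and 2.90 TPM in WT HFD (log2 change -1.13 ± 0.25, adjusted p = 0.00713). The LFD values of Tgfbr2 overlapped, at 2.37, 1.5 and 2.25 TPM in KO and 3.21, 1.01 and 1.63 TPM in WT (log2 change 0.10 ± 0.25, adjusted p = 0.921).

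The platelet-derived growth factor receptors did not pass on either diet. Pdgfrb, the receptor of stellate cells and pericytes, was at 2.50, 3.83 and 0.950 TPM in KO LFD and 0.610, 0.580 and 0.770 TPM in WT LFD, with no overlap (log2 change 0.96 ± 0.27, adjusted p = 0.174). Pdgfra was at 0.410 to 0.580 TPM in KO HFD and 0.210 to 0.280 TPM in WT HFD, below the filter. Ccn2, a target of transforming growth factor beta and YAP signalling, was at 0.580, 1.24 and 1.39 TPM in KO HFD, 1.25, 0.950 and 1.71 in WT HFD, 1.70, 3.69 and 5.17 in KO LFD and 2.46, 0.860 and 2.81 in WT LFD. The genotypes overlapped on both diets, and 23.2% of its exon bases are shared with Gm15270 on the other strand. Thbs1, a matricellular activator of latent transforming growth factor beta, did not exceed 0.400 TPM.

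On HFD the calls on Ecm1, Vim, Col6a1 and Tgfbr2 held without any 1 of the 12 libraries (highest adjusted p = 0.0373). The call on Des was lost without WT HFD library 6 (adjusted p = 0.0586) and that on Tgfb1 without KO HFD library 5 (0.0510). The call on Acta2 was lost without WT HFD library 2 or 6 or KO HFD library 1 or 6 (0.0584 to 0.0702), and that on Dcn without WT HFD library 2 or 6 or KO HFD library 5 or 6 (0.0803 to 0.104). The call on Sparc was lost without WT LFD 4, 7 or 8, WT HFD 1, 2 or 6, or KO HFD 5 or 6 (0.0503 to 0.133). That on Mmp14 was lost without WT LFD 8, KO LFD 5, WT HFD 1, 2 or 6, or KO HFD 5 or 6 (0.0534 to 0.143), and that on Fn1 without WT LFD 4 or 7, KO LFD 2, WT HFD 1, 2 or 6, or KO HFD 1 or 5 (0.0506 to 0.135). Lrat passed on HFD without KO LFD library 2 (adjusted p = 0.0371). With WT HFD library 6 left out, 4 higher genes were called in place of 9, and 5 with WT HFD 2, KO HFD 5 or KO HFD 6 left out. Higher calls over all tested genes fell too, from 1347 to 835 without WT HFD 6 and 1094 without WT HFD 2. They were 879 without KO HFD 5 and 1138 without KO HFD 6.

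Averaged over both diets, a comparison added after the values were seen, 14 of the 29 genes were higher in KO than in WT livers and 0 were lower, where 9.13% of all tested genes were higher and 12.4% lower. At an unadjusted p below 0.05, 18 were higher and 1 lower by limma, as were 14.7% and 23.0% of all tested genes. Among the 22 genes that reached 1 TPM in a WT library 8 were called higher, including Col4a2, which passed the filter only with KO libraries. Among the 7 that did not reach it, 6 were called higher. In role order they were Lrat, Des and Ecm1 among quiescent genes, Acta2, Vim and Col5a1 among activated genes, Col4a2 in the basement membrane, Col6a1, Col14a1, Sparc, Dcn and Bgn among other matrix genes, and Tgfb1 and Pdgfrb. The largest log2 changes were 1.29 ± 0.17 for Ecm1 (adjusted p = 0.00159), 1.21 ± 0.21 for Vim (0.00490) and 1.0 ± 0.20 for Sparc (0.00765). In 5 genes (Lrat, Vim, Col5a1, Col6a1 and Tgfb1) all 6 KO values lay above all 6 WT values, against 2.23% of all tested genes. Of these, Lrat, Col5a1 and Col6a1 are among the 7 that entered the test through the KO libraries, so the share of all genes is no measure for them. Col1a2 (0.45 ± 0.15, adjusted p = 0.0586), Col4a1 (0.54 ± 0.19, 0.0617), Tgfbr2 (-0.51 ± 0.18, 0.0611) and Col3a1 (0.60 ± 0.28, 0.142) did not pass.

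In this average the calls on Ecm1, Vim, Sparc, Bgn, Tgfb1, Col4a2 and Col6a1 held without any 1 library (highest adjusted p = 0.0459). The others were lost without at least 1. Leaving out WT LFD library 4 ended the call on Dcn (adjusted p = 0.0502). Des was lost without WT HFD library 6 (0.0615), Lrat without WT LFD library 4 or WT HFD library 6 (0.0540 to 0.0559) and Col5a1 without WT LFD library 7 or WT HFD library 1 or 6 (0.0507 to 0.0580). Acta2 was lost without WT LFD 4, 7 or 8, KO LFD 2, WT HFD 2 or 6, or KO HFD 6 (0.0527 to 0.0642). Col14a1 and Pdgfrb were lost without any library other than KO LFD 5 or KO HFD 1 (0.0524 to 0.0814 and 0.0513 to 0.0789). Without KO LFD library 5 Col1a2 (0.0251) and Col3a1 (0.0496) passed, as Col4a1 did without WT LFD library 4 (0.0324) or KO LFD library 4 (0.0289). Without WT HFD library 6 the count of 14 fell to 8, and the higher calls over all tested genes fell from 1094 to 702.

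No change of these genes with diet was detected in WT livers. None of the 29 was called, where 0.25% of all tested genes were higher and 0.0584% lower on HFD, and at an unadjusted p below 0.05 limma gave 0 higher and 2 lower, against 8.07% and 4.01% of all tested genes. The median log2 change was -0.12 over the 29 genes and 0.08 over all tested genes. Mmp14 came closest (8.92 ± 0.536 on HFD against 17.8 ± 4.77 TPM on LFD, log2 change -0.89 ± 0.23, adjusted p = 0.140). In this comparison 2 genes lay without overlap lower on HFD, where 8.81% of all tested genes did so, and 1 higher, where 15.2% did. The groups of Ecm1 (39.2 ± 3.30 on HFD against 55.3 ± 10.2 TPM, adjusted p = 0.480) and Fn1 (247 ± 29.5 against 188 ± 32.1 TPM, adjusted p = 0.646) were the others without overlap. In WT livers Acta2 changed by -0.07 ± 0.19 (adjusted p = 0.922), Col1a2 by 0.11 ± 0.22 (0.880) and Col3a1 by 0.35 ± 0.40 (0.775) on the log2 scale.

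In KO livers, 1 of the 29 genes was higher and 4 were lower on HFD than on LFD, where 6.73% of all tested genes were higher and 17% lower (806 and 2040 genes, or 1597 and 1664 with median-ratio scaling). Ecm1 was the higher gene (158 ± 24.5 against 86.7 ± 27.2 TPM, log2 change 0.89 ± 0.24, adjusted p = 0.0221). Reln had the largest change, from 11.9 ± 5.39 TPM on LFD to 2.48 ± 0.792 TPM on HFD, with no overlap (log2 change -1.82 ± 0.37, adjusted p = 0.00784). Ccn2 was lower at 1.07 ± 0.431 against 3.52 ± 1.74 TPM (log2 change -1.07 ± 0.34, adjusted p = 0.0405). Fn1 (142 ± 53.8 against 267 ± 74.5 TPM, log2 change -0.95 ± 0.30, adjusted p = 0.0423) and Tgfbr2 (0.693 ± 0.212 against 2.04 ± 0.471 TPM, log2 change -0.84 ± 0.25, adjusted p = 0.0346) were lower too. These KO HFD values are the ones already compared with WT HFD, so both comparisons share them. The call on Reln held without any 1 library (highest adjusted p = 0.0286). Those on Ecm1 and Tgfbr2 were lost without any of 4 libraries, KO LFD 2 or 5 or KO HFD 1 or 5 (0.0542 to 0.0793 and 0.0630 to 0.109). That on Ccn2 was lost without any of 6 (KO LFD 4 or 5, WT HFD 1 or 6, KO HFD 1 or 5, 0.0521 to 0.139), and that on Fn1 without any library other than KO LFD 4 or KO HFD 6 (0.0505 to 0.139).

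**Figure D4:**
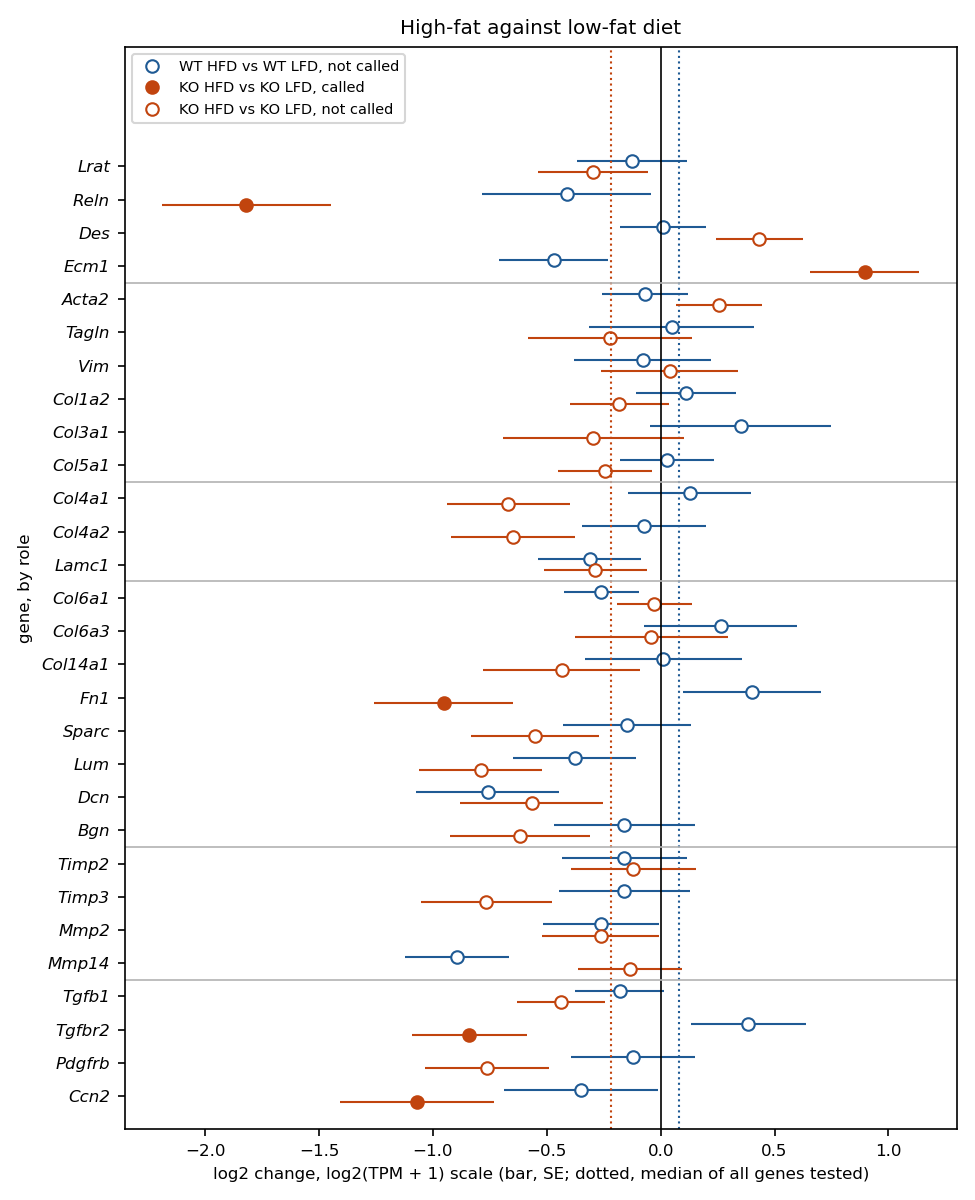
Log2 change between HFD and LFD in WT and in KO livers for the 29 tested genes, in order of role, with bars for the SE. Filled points passed the adjusted test (0 in WT, 1 higher and 4 lower in KO), and dotted lines give the median of all tested genes (0.08 in WT and -0.22 in KO).

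The interaction of genotype and diet was called for Ecm1 alone among the 29 genes (1 higher and 0 lower, where 2.54% of all tested genes were higher and 7.12% lower, 304 and 853 genes, or 770 and 878 with median-ratio scaling). At an unadjusted p below 0.05, 2 were higher and 3 lower by limma, against 8.21% and 24.6% of all tested genes. The change of Ecm1 with diet was higher in KO than in WT livers by 1.37 ± 0.34 on the log2 scale (adjusted p = 0.0352). This call was lost without WT LFD library 7 or 8, KO LFD library 2 or 5, WT HFD library 1 or 6, or KO HFD library 1 or 5 (adjusted p = 0.0536 to 0.0965). Tgfbr2 (-1.23 ± 0.36, adjusted p = 0.0515), Fn1 (-1.35 ± 0.43, 0.0631) and Reln (-1.41 ± 0.52, 0.0918) did not pass. For these 3 genes a difference between the genotypes in their response to diet was therefore not shown.

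Other genes of the same pathways were counted from wider lists, and on HFD their counts are to be read against the 11.2% of all tested genes called higher and the 25.8% called lower. Of 15 tested genes of collagen processing, 2 were higher and 3 lower in KO livers, near those shares: Pcolce, an enhancer of procollagen cleavage, was higher (4.47 ± 0.762 against 1.52 ± 0.232 TPM, adjusted p = 0.0165). Sec23a, a coat protein of the vesicles that carry procollagen, was lower (6.31 ± 0.478 against 17.3 ± 3.76 TPM, adjusted p = 0.00272), as was Mia3, the procollagen export receptor (adjusted p = 0.0109). Of transforming growth factor beta signalling, 2 of 17 were higher and 5 lower, again near those shares. The endothelial co-receptor endoglin, Eng, was higher (15.4 ± 1.90 against 4.30 ± 1.40 TPM, adjusted p = 9.49e-04), while the signal transducers Smad4 (2.94 ± 0.607 against 7.37 ± 1.22 TPM, adjusted p = 0.00354) and Smad2 (1.46 ± 0.766 against 3.99 ± 1.27 TPM, adjusted p = 0.0169) were lower. Of matrix receptors, 1 of 9 was higher and 4 were lower, among them integrin beta 1, Itgb1 (log2 change -1.15 ± 0.20, adjusted p = 0.00236), dystroglycan, Dag1, and syndecan 1, Sdc1. Of further proteases, 0 of 6 was higher and 3 were lower, led by plasminogen, Plg, a product of hepatocytes (360.3 ± 59.2 against 802 ± 125 TPM, adjusted p = 0.00546). On LFD, 0 of the 56 genes tested in these lists and the wider basement membrane list were called between the genotypes by limma, with 9 higher and 1 lower at an unadjusted p below 0.05 (8.38% and 4.34% of all tested genes).

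Markers of other cell types moved with genotype as well. Counts of markers called on HFD are to be read against the 11.2% of all tested genes called higher and the 25.8% called lower. The filter leans these counts too toward higher levels in KO. The endothelial markers Lyve1, Tek and Flt4 and the stellate marker Lhx2 reached 1 TPM in no WT library and were tested through the KO libraries alone. Bmp5 (stellate) and Adgre1 (macrophage) also passed only with KO libraries. The summed levels take all genes of a list, with no filter. Of 11 further stellate cell markers tested, 6 were higher and 0 lower in KO than in WT livers on HFD (median log2 change 0.76), among them Colec10 (4.03 ± 1.36 against 1.17 ± 0.655 TPM, adjusted p = 0.00624) and the stellate globin Cygb (2.97 ± 0.578 against 1.37 ± 0.158 TPM, adjusted p = 0.00780). Their summed level was 38.2 to 63.0 TPM in KO HFD, 23.5 to 36.7 in WT HFD, 49.0 to 76.1 in KO LFD and 34.4 to 43.4 in WT LFD. Endothelial markers moved more: 13 of 14 were higher on HFD (median log2 change 1.1), and their sum was 124.3 to 143.6 TPM in KO HFD, 42.1 to 59.6 in WT HFD, 118.5 to 135.3 in KO LFD and 61.3 to 76.1 in WT LFD. Of 12 Kupffer cell and macrophage markers 6 were higher on HFD, with sums of 74.7 to 460.4 against 40.7 to 95.2 TPM, and of 188.5 to 546.9 against 72.3 to 138.8 TPM on LFD. Of 13 hepatocyte markers 9 were lower on HFD, with sums of 41037 to 55429 against 70641 to 80197 TPM, of which albumin (Alb) was the largest part. None of these markers was called on LFD by limma, where at an unadjusted p below 0.05 5 stellate, 12 endothelial and 11 Kupffer cell markers were higher and 4 hepatocyte markers lower in KO (8.38% and 4.34% of all tested genes). Vim, Sparc, Tgfb1, Bgn and the collagen IV genes are made by endothelial or macrophage cells too, and the part of these cells in the results was not tested.

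**Figure D5:**
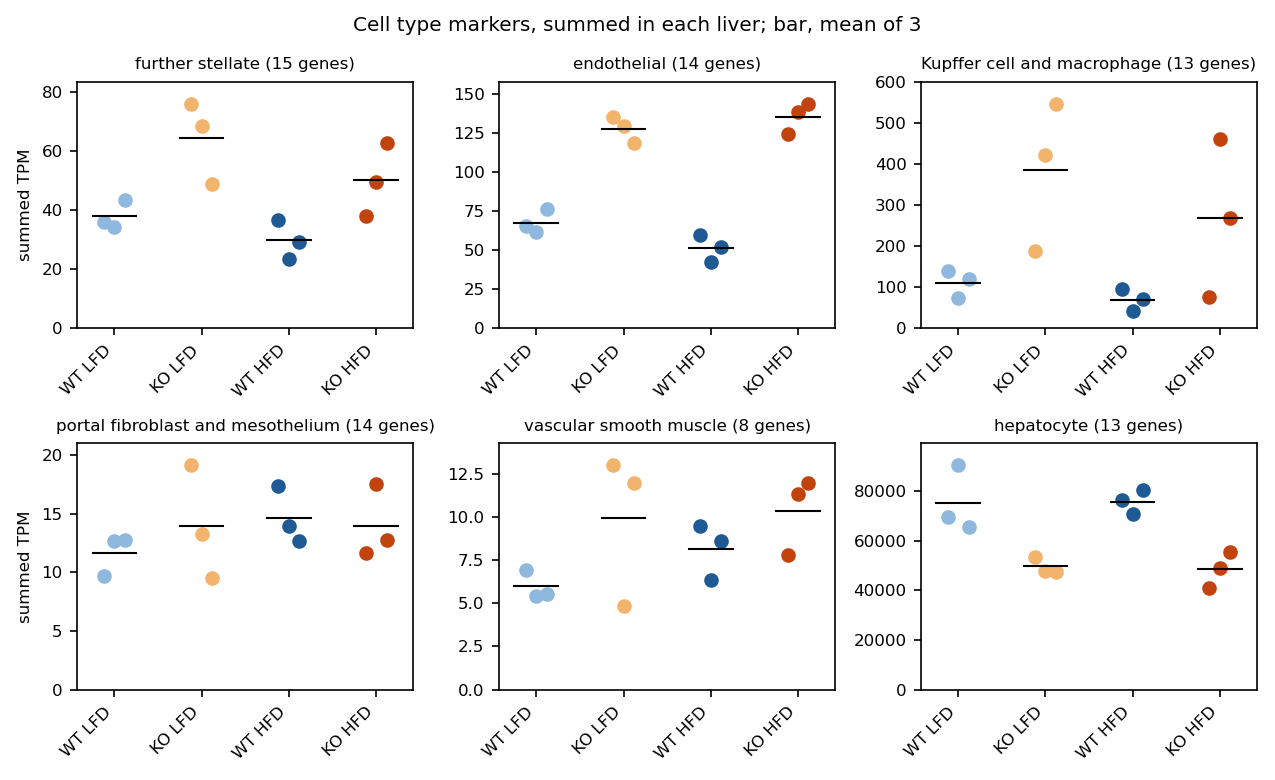
Summed TPM of marker lists in each library (points, in order of animal number) by group, with the mean of 3 livers (line), each panel on its own axis from 0. The endothelial sum is at least 118.5 TPM in the 6 KO libraries and at most 76.1 TPM in the 6 WT libraries. The hepatocyte sum is lower in KO than in WT on each diet. Albumin, Alb, is the largest part of that sum (mean of 19976 TPM in KO LFD and 39941 TPM in WT LFD).

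Markers of portal fibroblasts and mesothelium were mostly too low to test. Of the 5 tested, 3 had positive log2 changes on HFD (median 0.46), 0 were called higher and 2 were called lower (Gas1 and Entpd2), against 11.2% and 25.8% of all tested genes. Periostin, Postn, was called higher averaged over both diets (adjusted p = 0.0243). In this list 9 of the 14 were below 1 TPM in each library, and the sums on HFD overlapped (11.6 to 17.5 against 12.7 to 17.3 TPM). For vascular smooth muscle 2 of 8 genes were tested, of which Smtn was higher in KO HFD (1.85 ± 0.0700 against 0.547 ± 0.103 TPM), and Myh11, a defining gene, was at most 0.320 TPM. Smtn reached 1 TPM in no WT library, so it was tested through the KO libraries alone. Of 4 cholangiocyte markers 2 were lower in KO HFD (Epcam and Spp1). Among the stellate markers, Gfap was at most 0.180 TPM in 11 libraries and at 1.89 TPM in WT HFD library 2, where Timp1 also had its highest level.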

How the data were processed

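Poly(A) RNA from 12 snap-frozen livers was sequenced from TruSeq libraries, per the labels' protocols. Reads were handled with HISAT2 and StringTie on build mm10, per the submitters' processing notes; the sources used here give neither versions nor the strand of counting. A table of TPM was deposited by the authors. It sums to 1000000 in each library and holds no counts, so depth is unknown and no counting interval was computed. Library columns abbreviated differently from the labels were matched to KO by the deposited group means, which they gave within 3.33e-05 TPM. Symbols came from a gene name table, positions from GENCODE on GRCm38 and promoter windows from RefSeq.

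A model of 1 mean per group was fitted to log2(TPM + 1) by limma 3.58.1 (R 4.3.3). Variances were moderated with a trend, tests were 2-sided, and p-values were adjusted by Benjamini-Hochberg in each comparison over 11980 genes, those that reached 1 TPM in 3 or more libraries. The fit was tested on simulated data. Nothing says that livers were pooled; each is labelled as its own animal. The members, gene lists and comparisons were chosen with earlier results of these data known. Genes described in full were those called in a comparison plus Lrat, Des, Acta2, Col1a1, Col1a2, Col3a1, Timp1, Col4a1 and Col4a2; others are given by range, with the 3 lowest p per wider list. Some list members shown for their overlap or low level, such as Gfap and Myh11, were chosen after their values were seen. Alternatives were pseudocounts of 0.1 and 0.5, no filter and a filter of 6 libraries, median-ratio scaling, quantile normalization, omission of mitochondrial genes, array weights, a robust prior, only the groups compared, a replicate block and leaving out each library. Matplotlib 3.10.9 (Python 3.11.15) drew the plots.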

Additional observations from a re-analysis of the deposited data

Results flagged for a closer look

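The response of Ecm1 to diet was called different between the genotypes by limma (interaction 1.37, adjusted p = 0.0352). Its log2 change (HFD against LFD) was 0.89 in KO livers and -0.47, not called, in WT livers. The interaction call was lost in 8 of the 12 fits without 1 library, and without the filter. Fn1 was lower on HFD in KO livers (log2 change -0.95) and had the opposite sign in WT livers (log2 change 0.40, not called), with no overlap between the diets in either genotype. The difference between these changes of Fn1 did not pass (limma interaction, adjusted p = 0.0631).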

How the results depend on the processing

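The alternatives were run for gene results called, or fixed for description in full, in the genotype comparisons, for the calls in KO livers by diet and for the interaction of Ecm1; none of these changed sign, and the changes with diet in WT livers were recomputed as counts only. Of these gene results, 447 kept their side of the threshold when 1 library was left out, 99 lost and 6 gained a call, and under the other alternatives these numbers were 439, 26 and 12. On HFD the 9 higher genes in KO against WT became 19 with array weights and 4 to 10 without 1 library, and the 2 lower genes became 1 without the filter, with quantile normalization, with only the groups compared and with the replicate block, and 1 to 2 without 1 library. Calls over all tested genes moved too. With array weights they went from 1347 to 3000 higher and from 3088 to 4733 lower. Without 1 library they were 835 to 1437 higher and 1499 to 3240 lower. The lower calls were 2401 without the filter, 2668 with quantile normalization, 2779 with only the groups compared and 2761 with the replicate block. On LFD the 0 higher genes became 1 with median-ratio scaling, quantile normalization or array weights, and 0 to 1 without 1 library. Over all tested genes the 11 higher became 23, 24 and 46 with median-ratio scaling, quantile normalization and array weights. In WT livers the 0 genes changed by diet became 2 higher and 3 lower with array weights. Over all tested genes the same setting raised the calls from 30 higher and 7 lower to 2003 and 595. In KO livers the 1 gene higher on HFD became 2 with median-ratio scaling, 0 with only the groups compared and 0 to 1 without 1 library. Over all tested genes the 806 higher became 1597 with median-ratio scaling and 275 with only the groups compared. The 4 lower genes became 1 without the filter or with only the groups compared, 8 with array weights, 2 with the replicate block and 1 to 6 without 1 library. Over all tested genes the 2040 lower became 1319 without the filter and 452 with only the groups compared. They became 2621 with array weights and 1868 with the replicate block. For the interaction the 1 higher gene became 0 without the filter, 2 with quantile normalization or array weights and 0 to 1 without 1 library. The 0 lower genes became 1 with either pseudocount, the filter of 6 libraries, quantile normalization or the robust prior, 2 with median-ratio scaling, 4 with array weights and 0 to 2 without 1 library. Over all tested genes the interaction calls went from 304 higher and 853 lower to 1405 and 3488 with array weights. They were 79 and 103 without the filter, and 765 and 894 with quantile normalization. Averaged over the diets the 14 higher genes became 8 to 16 without 1 library, and the 0 lower genes 1 with median-ratio scaling, quantile normalization or array weights and 0 to 1 without 1 library. Over all tested genes the 1094 higher became 702 to 1291 without 1 library. The 1486 lower became 1963, 1921 and 2461 with median-ratio scaling, quantile normalization and array weights. The Lix1l change on HFD ran from -0.44 to 0.23 without 1 library, and turned to 0.23 without KO HFD library 5. The causes were not tested. Median-ratio scaling moved the median of all tested genes on HFD from -0.25 to -0.06 and quantile normalization to -0.08. Animal numbers are shared between groups, and the correlations of the deviations of same-numbered libraries ran from -0.255 to 0.102. These showed no sign of pairing by number, but so few pairs cannot exclude a shared litter or batch. The replicate block gave 8 higher genes on HFD and 12 on average over the diets (1253 and 1018 over all tested genes). A count model was planned for counts and was not run on TPM. Without counts, how far depth limits the genes near 1 TPM is not known.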
